A study of Homo sapiens with 9 samples.

Results

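The genes LGALS12 and RARRES3 lie next to each other on the long arm of human chromosome 11, and 5 further protein-coding genes stand directly beside them. These 7 genes, in chromosome order HRASLS5, LGALS12, RARRES3, HRASLS2, PLA2G16, ATL3 and RTN3, were taken by name from a table of 58735 genes. LGALS12 and RARRES3 were picked because their transcript levels differed strongly between the groups, so their changes are given as a description with no test. The other 5 were picked as their neighbours by position, and their changes were tested. The choice was made with earlier results of these data known, so these tests are not free of selection. All 7 passed the filter of a mean of at least 0.5 FPKM, that is, sequenced fragments divided by gene length and by library size. HRASLS5 and HRASLS2 passed only just, with means of 0.514 and 0.554 FPKM, and only their No CM means lay clearly above the limit, so a count over the members that passed supports nothing here.

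The levels come from messenger RNA of MDA-MB-231, a long-established line of human breast cancer cells with mesenchymal features and no oestrogen receptor, labelled WT in every group. Cells had been kept in medium alone (No CM), in medium conditioned by untreated cells of the same line (Cont CM), or in medium conditioned by cells of the line driven into therapy-induced senescence by 72 h of nocodazole at 100 ng/ml (TIS CM). Nocodazole is a drug that depolymerizes microtubules, and conditioned medium carries what the donor cells secreted and lacks what they consumed. Each group held 3 libraries, numbered replicates that are not stated to be separate cultures, so each p-value below reflects the spread among libraries, which may be technical. The time in conditioned medium is 72 h in the sample labels but 48 h in the series text. All groups are the same single line, and No CM differs from the other groups in having met no cells at all. Cont CM against No CM therefore compares conditioned with unconditioned medium. TIS CM against Cont CM compares medium of senescent, nocodazole-treated donors with medium of donors not given nocodazole. Senescence of the donors, the drug itself and any drug carried over in the medium cannot be told apart here.

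Library totals ran from 32636708 to 39189036 fragments on genes, and log2 levels correlated between libraries at 0.98217 to 0.99322 across genes. Cont CM replicate 2 stood apart: gene GC content and length held 17.2% of the variance of its levels around the gene means, against 0.178% to 5.03% in the other libraries. The mesenchymal markers VIM, ZEB1, CD44 and AXL summed to 636 to 706 FPKM per library, and ESR1 and PGR reached at most 0.008 FPKM. Of the other 2 luminal markers, EPCAM, an epithelial adhesion gene, was at 8.42 to 8.61 FPKM in the group means. CDH1, the gene of E-cadherin, averaged 1.17, 0.299 and 0.438 FPKM in No CM, Cont CM and TIS CM, the order of LGALS12 and RARRES3. It fell by 1.07 on the scale log2(FPKM + 0.5) in Cont CM against No CM (SE 0.11, limma adjusted p = 0.000584) and by 0.83 in TIS CM against No CM (SE 0.11, limma adjusted p = 0.0226), the latter a call lost in 6 of 9 fits with a library left out (up to 0.12). LGALS12 and PLA2G16 are known from adipocytes and LGALS12 also from myeloid cells. ADIPOQ, LEP, ELANE, MPO and CSF3R, defining markers of those cells, were listed at 0 in every library. The 6 adipocyte markers summed to 0.32 to 0.472 FPKM with overlapping ranges in the 3 groups. The 6 myeloid markers summed to 4.52 to 5.8 FPKM in No CM, 3.19 to 4.09 FPKM in Cont CM and 4.5 to 5.21 FPKM in TIS CM, nearly all of it CD14. CD14 fell by 0.43 (SE 0.10, limma adjusted p = 0.0173) in Cont CM against No CM, a call lost without No CM replicate 1 or 3 or Cont CM replicate 2 (limma adjusted p up to 0.069). The part of CDH1 and CD14 in the results below was not tested. In bulk RNA, fewer cells that carry a transcript and less of it in each cell cannot be told apart.

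LGALS12 encodes galectin-12, a galectin, that is, a protein of the family that binds beta-galactosides, which sits on lipid droplets of fat cells and restrains the breakdown of stored fat. RARRES3 (also PLAAT4) was found as a gene induced by retinoids and is also induced by interferon. It belongs with HRASLS2, HRASLS5 and PLA2G16 to the PLAAT family, small membrane enzymes that cut or move acyl chains of phospholipids with a catalytic cysteine and arose by local gene duplication. Their relative HRASLS lies alone on another chromosome. ATL3 and RTN3 are unrelated to these in function. ATL3 encodes atlastin-3, a GTPase that fuses tubules of the endoplasmic reticulum, and RTN3 a reticulon that curves those tubules, and both proteins act as receptors for the autophagy of this organelle.

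The shared ancestry of the PLAAT genes matters for the measurement, since reads of near-identical copies could be assigned to the wrong gene. The coding sequence around the catalytic cysteine, their most conserved part, is therefore shown for all 5 relatives from GENCODE 29 (hg38), with the cysteine codon in capitals.
RARRES3: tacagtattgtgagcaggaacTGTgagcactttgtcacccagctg
HRASLS2: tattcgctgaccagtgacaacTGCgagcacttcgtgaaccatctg
PLA2G16: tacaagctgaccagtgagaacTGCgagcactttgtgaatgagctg
HRASLS5: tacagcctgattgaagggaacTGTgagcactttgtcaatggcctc
HRASLS: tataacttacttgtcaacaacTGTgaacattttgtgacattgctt
The codon is number 113 in RARRES3, HRASLS2 and PLA2G16, 233 in HRASLS5 and 224 in HRASLS. Over the aligned coding bases RARRES3 was 66.3% identical to HRASLS2, 65.3% to PLA2G16 and 68.1% to HRASLS5. HRASLS2 and PLA2G16 formed the closest pair, at 76.4% over 479 bases. The longest exact run shared by any pair of the 5 was 26 bases, between PLA2G16 and HRASLS5, and the longest that RARRES3 shared with any of them was 24 bases. How many reads were assigned to the wrong relative was not measured.

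The 7 genes span 298 kb of chromosome 11 (hg38, positions 63461404 to 63759891), and no gene body overlaps the next. HRASLS5 (63461404 to 63491194, minus strand) and LGALS12 (63506084 to 63516774, plus strand) face away from each other with start sites 14.9 kb apart. RARRES3 (63536809 to 63546462, plus strand) follows LGALS12 in the same direction, with 20.03 kb between the bodies. HRASLS2 (63552770 to 63563383), PLA2G16 (63573195 to 63616883) and ATL3 (63624087 to 63671921) lie on the minus strand, 6.31 kb, 9.81 kb and 7.2 kb beyond the gene before them. RTN3 (63681446 to 63759891, plus strand) starts 9.53 kb from the start of ATL3 and points away from it. Of 5 further entries inside the span, 4 were listed at 0 in every library. The fifth, AP000753.2, is an antisense transcript inside ATL3 with a mean of 0.819 FPKM and no call in any comparison. The sources used here do not say whether fragments were counted by strand, so its reads and those of ATL3 cannot be told apart.

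LGALS12 fell furthest of the 7. In No CM it stood at 8.66, 6.17 and 7.88 FPKM in replicates 1, 2 and 3. In Cont CM it stood at 1.09, 1.38 and 1.62 FPKM. In TIS CM it stood at 2.94, 3.46 and 2.71 FPKM. The 3 groups did not overlap, with No CM highest, Cont CM lowest and TIS CM between them. Group means were 7.57 ± 1.27, 1.36 ± 0.262 and 3.04 ± 0.386 FPKM (SD, n = 3), so the mean in No CM was 5.55 times that in Cont CM, and that in TIS CM 2.23 times that in Cont CM. These levels rest on 505 to 710 fragments per library in No CM, 82 to 144 in Cont CM and 233 to 284 in TIS CM. On the scale log2(FPKM + 0.5), which all changes below use and which shrinks changes of low genes, LGALS12 differed by -2.11 (SE 0.14) in Cont CM against No CM, by 0.93 (SE 0.14) in TIS CM against Cont CM and by -1.18 (SE 0.14) in TIS CM against No CM. By size these changes were number 4, number 37 and number 17 of 13912 tested genes.

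RARRES3 had the same order of groups at a level several times higher. It was at 56.4, 49.1 and 57.8 FPKM in No CM, from 2299 to 2645 fragments. It was at 15.7, 19.7 and 24.8 FPKM in Cont CM, from 671 to 1261 fragments. It was at 33.2, 37.9 and 28.3 FPKM in TIS CM, from 1395 to 1779 fragments. Again the groups did not overlap, although TIS CM replicate 3 and Cont CM replicate 3 came within 4 FPKM of each other. Group means were 54.4 ± 4.66, 20.02 ± 4.56 and 33.1 ± 4.77 FPKM (SD, n = 3). The change was -1.44 (SE 0.16) in Cont CM against No CM, 0.73 (SE 0.16) in TIS CM against Cont CM and -0.71 (SE 0.16) in TIS CM against No CM, which were number 15, number 90 and number 89 by size. Along the log2 distance from Cont CM to No CM, the TIS CM mean lay 44.0% of the way for LGALS12 and 50.5% for RARRES3. It lay 41.8% of the way for HRASLS5, 45.6% for PLA2G16 and 19.5% for HRASLS2. For ATL3 and RTN3 it lay 72.4% and 83.5% along a distance near 0.

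**Figure D1:**
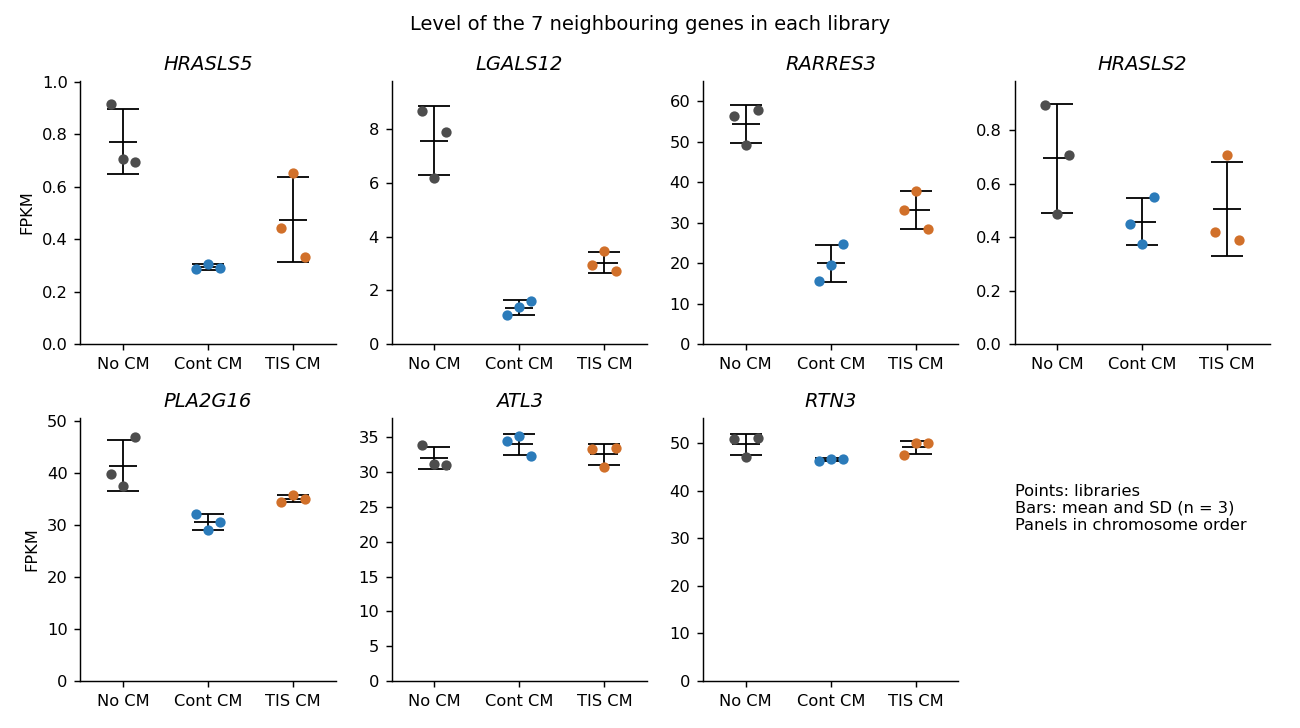
Level in FPKM (vertical axes, each from 0) of the 7 genes in chromosome order, for the 3 groups on the horizontal axes; points are libraries and bars the mean and SD of 3. LGALS12 and RARRES3 fall from No CM to Cont CM with TIS CM between, HRASLS5 and PLA2G16 have the same order of means over a smaller range, and ATL3 and RTN3 are nearly level.

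Among the other PLAAT members of the cluster, PLA2G16 and HRASLS5 fell in Cont CM, and HRASLS2 was not called. PLA2G16 encodes a phospholipase that is abundant in fat tissue and serves picornaviruses as a host factor. It was at 39.8, 37.4 and 46.8 FPKM in No CM, 32.1, 29.04 and 30.6 FPKM in Cont CM, and 34.3, 35.7 and 35.0 FPKM in TIS CM. The groups did not overlap here either, in the order of LGALS12 and RARRES3, but the mean in No CM was 1.35 times that in Cont CM. From No CM to Cont CM, PLA2G16 fell by 0.42 on the log2 scale (SE 0.07, limma adjusted p = 0.00645). In TIS CM against Cont CM it differed by 0.19 (SE 0.07, 95% interval 0.03 to 0.36, limma adjusted p = 0.16) and in TIS CM against No CM by -0.23 (SE 0.07, limma adjusted p = 0.212), neither of which passed the threshold of an adjusted p under 0.05. These misses do not show that PLA2G16 was equal in those groups.

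HRASLS5, which encodes an enzyme that transfers acyl chains to the nitrogen of phosphatidylethanolamine and is best known from testis, was low throughout. Its levels were 0.915, 0.705 and 0.695 FPKM in No CM, 0.288, 0.307 and 0.289 FPKM in Cont CM, and 0.441, 0.652 and 0.331 FPKM in TIS CM, from 31 to 108 fragments per library. All 3 groups were again separate and in the same order. The gap between TIS CM and Cont CM was narrow, with 41 fragments in TIS CM replicate 3 against 36 and 37 in Cont CM replicates 2 and 3. From No CM to Cont CM, HRASLS5 fell by 0.67 (SE 0.14, limma adjusted p = 0.0123), with the mean in No CM 2.62 times that in Cont CM. HRASLS5 passed the filter only through its No CM level, so this p is not free of that selection. With no filter the limma adjusted p was 0.029. It differed by 0.28 (SE 0.14, limma adjusted p = 0.254) in TIS CM against Cont CM and by -0.39 (SE 0.14, limma adjusted p = 0.248) in TIS CM against No CM. HRASLS2, a phospholipase and acyltransferase gene, rests on only 10 to 24 fragments per library. It was at 0.895, 0.486 and 0.707 FPKM in No CM, 0.449, 0.376 and 0.55 FPKM in Cont CM, and 0.419, 0.708 and 0.391 FPKM in TIS CM, and these groups overlapped. Its change of -0.31 in Cont CM against No CM had a 95% interval of -0.68 to 0.07 (limma adjusted p = 0.246), which holds both no change and one larger than that of PLA2G16, so a difference was not detectable at this depth.

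ATL3 and RTN3, the genes of the endoplasmic reticulum at the far end, showed no called change. ATL3 was at 33.8, 31.1 and 31.1 FPKM in No CM, 34.5, 35.1 and 32.3 FPKM in Cont CM, and 33.4, 30.8 and 33.5 FPKM in TIS CM. Its groups overlapped, with 95% intervals of -0.03 to 0.20 for Cont CM against No CM (limma adjusted p = 0.306) and -0.18 to 0.06 for TIS CM against Cont CM (limma adjusted p = 0.52). RTN3 was at 51.0, 47.2 and 51.0 FPKM in No CM, 46.3, 46.7 and 46.8 FPKM in Cont CM, and 47.6, 49.968 and 50.017 FPKM in TIS CM. Cont CM lay below both other groups without overlap, yet by only -0.09 (SE 0.04, 95% interval -0.18 to -0.00321, limma adjusted p = 0.146) against No CM. With the dependence on GC content and gene length removed, a setting chosen after seeing the data, this change was -0.14 and passed the threshold (limma adjusted p = 0.0422). The 95% intervals for TIS CM against No CM were -0.09 to 0.14 for ATL3 (limma adjusted p = 0.898) and -0.11 to 0.07 for RTN3 (limma adjusted p = 0.918). In Cont CM against No CM both intervals end short of the -0.42 of PLA2G16, the neighbour of ATL3 on the other side.

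Of the 5 neighbours of LGALS12 and RARRES3, limma called 2 lower and 0 higher in Cont CM against No CM. There it called 16.3% of all tested genes, 8.56% lower and 7.77% higher. At an unadjusted p under 0.05 the counts were 3 lower, with RTN3 added, and 0 higher, and voom, a limma fit to fragment counts recovered from the FPKM, called 2 lower and 0 higher. Groups of libraries did not overlap for 3 of the 5, against 33.3% of all tested genes. Between TIS CM and Cont CM limma called 0 of the 5 in either direction (1 higher, PLA2G16, and 0 lower at an unadjusted p under 0.05, 0 by voom), where it called 4.48% of all genes, 2.9% higher and 1.57% lower. Libraries did not overlap for 3 of the 5, against 28.6% of all genes. Between TIS CM and No CM limma again called 0 of the 5 (0 higher and 2 lower, HRASLS5 and PLA2G16, at an unadjusted p under 0.05, 0 by voom), where it called 0.855% of all genes, 0.403% higher and 0.453% lower. Here 2 of the 5 had no overlap, against 24.4% of all genes. A set of 5 genes is too small to read such shares against the background, and HRASLS5 passed the filter only through its No CM level. The 3 comparisons share their groups, so a gene that is low in Cont CM enters the first and second of them together.

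PLA2G16 was compared with ATL3, its direct neighbour, and with RTN3, the gene beyond ATL3, as the log2 ratio of FPKM in each library, and both ratios were chosen after the values were seen. PLA2G16 over ATL3 averaged 0.36 ± 0.20 in No CM and -0.15 ± 0.11 in Cont CM (SD, n = 3), a difference of -0.52 with no overlap between the libraries. PLA2G16 over RTN3 averaged -0.27 ± 0.13 and -0.61 ± 0.08, a difference of -0.34, also with no overlap. For both, the exact two-sided permutation test gave p = 0.1, adjusted 0.1 over the 2 ratios, which is the smallest p that 3 libraries against 3 allow. Groups without overlap always give this p, so the test adds nothing to the values.

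The order of levels within the cluster changed with the medium. In No CM RARRES3 was highest, followed by RTN3, PLA2G16 and ATL3, with LGALS12 well below them and HRASLS5 and HRASLS2 at the bottom. RARRES3 and RTN3 overlapped there, as did HRASLS5 and HRASLS2, and the libraries of other neighbours in that order did not. In Cont CM RARRES3 came below RTN3, ATL3 and PLA2G16, and no neighbours in the order overlapped. In TIS CM RTN3 was highest, the range of RARRES3 overlapped those of PLA2G16 and ATL3, and LGALS12 again stood between those and the pair HRASLS2 and HRASLS5, which overlapped. FPKM are levels per gene length, so they can be compared between genes as far as the lengths the authors counted over, from 0.742 kb for HRASLS2 to 7.6 kb for ATL3, describe the transcripts present.

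Around the cluster, no other tested gene changed as far as LGALS12 and RARRES3 on the scale log2(FPKM + 0.5). This held in Cont CM against No CM and in TIS CM against Cont CM. By the ratio of group means, HRASLS5 came near RARRES3. No CM over Cont CM was 2.62 for HRASLS5 and 2.72 for RARRES3, and TIS CM over Cont CM was 1.61 and 1.66. By voom, HRASLS5 and RARRES3 changed by -1.37 (SE 0.27) and -1.45 (SE 0.13) in Cont CM against No CM. Within 1 Mb (1000 kb) on either side of the span, 62 genes were tested, 60 without LGALS12 and RARRES3. To the left the nearest tested gene lay 573 kb away, so HRASLS5 borders a stretch with no tested gene. In Cont CM against No CM limma called 9 of the 60, or 15%, against the 16.3% of all genes. HRASLS5 is among the 9 and passed the filter only through its No CM level. The 1 gene called higher was WDR74, a ribosome assembly factor. The 8 called lower were PLA2G16, HRASLS5, the transcription genes POLR2G and TAF6L, the glycosaminoglycan enzyme gene B3GAT3, TMEM179B, the small nucleolar RNA host gene SNHG1 and COX8A, which encodes a subunit of cytochrome c oxidase. Of the 6 that are not members, COX8A changed most, by -0.45 (SE 0.08, limma adjusted p = 0.00796), from 199 ± 10.8 to 146 ± 18.2 FPKM, and it lies 469 kb from LGALS12. TAF6L followed with -0.40 (SE 0.06, limma adjusted p = 0.00401). The calls of WDR74, POLR2G and B3GAT3 were lost in some fits with a library left out, WDR74 without No CM replicate 1 or 3 and Cont CM replicate 2 or 3 (limma adjusted p up to 0.0779), B3GAT3 without No CM replicate 2 or 3 and Cont CM replicate 2 (up to 0.0788), and POLR2G in 7 of 9 such fits (up to 0.134). The count lower was 6 and the count higher 0 without Cont CM replicate 2. The largest change of either sign among the 60 was that of the antisense transcript AP001458.1, which was named after its value was seen. It was 2.01-fold lower and not called (SE 0.46 on the log2 scale, limma adjusted p = 0.169), against 4.32-fold for LGALS12 on the same scale. In TIS CM against No CM it differed by -1.23 (SE 0.46, limma adjusted p = 0.278), also not called, where LGALS12 differed by -1.18.

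Between TIS CM and Cont CM limma called 4 of the 60 higher and 0 lower (18 higher and 1 lower at an unadjusted p under 0.05, 8 and 0 by voom), or 6.67%, against 4.48% of all genes. They were B3GAT3, TMEM179B, COX8A and PPP1R14B, an inhibitor of a myosin phosphatase, with changes between 0.28 and 0.36. The count of 4 became 0 without Cont CM replicate 2 and 0 without any single TIS CM library, 1 without No CM replicate 1, 2 without No CM replicate 3 and 8 without Cont CM replicate 1. Between TIS CM and No CM limma called 0 of the 60 in either direction (5 higher and 5 lower at an unadjusted p under 0.05, 0 by voom). Signs ran mostly one way in the region. In Cont CM against No CM 49 of the 60 were below 0, where 50.2% of all genes were. In TIS CM against Cont CM 48 were above 0 and 12 below it, where 51.0% of all genes were above 0. The median change was small, -0.08 and 0.10. The region's genes are rich in GC, with a median of 55.9% against 48.5% of all tested genes. The dependence of levels on GC content and gene length was also removed within every library. After that, 31 of the 60 were below 0 in Cont CM against No CM, with a median of -0.02. In TIS CM against Cont CM 22 were below 0, against 12 before, with a median of 0.05. The changes of LGALS12 and RARRES3 were then -2.09 and -1.41 in Cont CM against No CM, against -2.11 and -1.44 before.

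**Figure D2:**
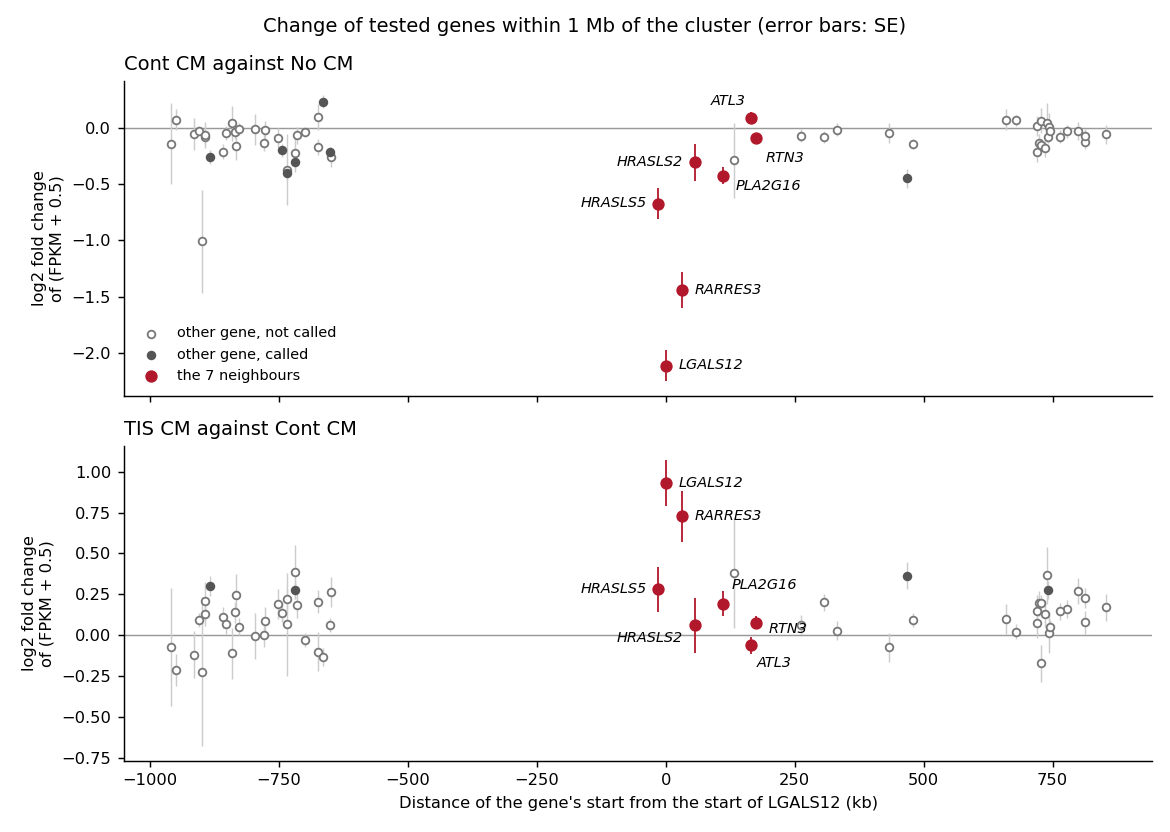
Log2 change of (FPKM + 0.5) with its SE for each tested gene within 1 Mb of the cluster (vertical axes), by the distance of its start from the start of LGALS12 in kb (horizontal axis), in Cont CM against No CM (top) and TIS CM against Cont CM (bottom). On this scale, which shrinks changes of low genes such as HRASLS5, LGALS12 at -2.11 and RARRES3 at -1.44 stand below all others in the top panel. Both stand above all others in the bottom one.

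Other large changes also had a neighbour that changed. In Cont CM against No CM 53 tested genes were at least 2-fold lower, and 14 of them had another such gene starting within 100 kb. LGALS12 and RARRES3 were 2 of these 14, and 8 of the other 12 were HLA genes of chromosome 6. Of the 19 genes at least 2-fold higher in TIS CM against Cont CM, 0 had another within that distance. With the limit set at 1.5-fold, 109 genes were higher there, 15 had another within 100 kb, and both LGALS12 and RARRES3 were among these. At that limit 259 genes were lower in Cont CM against No CM, and 37 had another within 100 kb. HRASLS5, LGALS12 and RARRES3 were among those. How often any tested gene has a tested neighbour so near was not counted.

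Genes elsewhere followed LGALS12 and RARRES3 more closely than PLA2G16, ATL3 and RTN3 did. HRASLS5 and HRASLS2 were too low to be compared. Likeness was the root mean square difference, over the 9 libraries, between log2(FPKM + 0.5) values after each gene's mean was taken away, over 10472 protein-coding genes with a mean of at least 1 FPKM. Closest to LGALS12 came PLEKHS1, a gene for a protein with a pleckstrin homology domain on chromosome 10, at 0.287. RARRES3 was second at 0.295, followed by HLA-DRA, an MHC class II chain, at 0.318, PI16, a peptidase inhibitor gene, at 0.323, the nerve growth factor receptor gene NGFR at 0.332 and the iron exporter gene SLC40A1 at 0.348. For scale, the profile of LGALS12 itself varied by 0.88 around its mean. PLA2G16 was number 254 in that order, RTN3 number 2470 and ATL3 number 7565.

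Closest to RARRES3 was again PLEKHS1, at 0.0981. PI16 followed at 0.148, then the MHC class II genes HLA-DOA at 0.162, HLA-DPB1 at 0.165 and HLA-DRB5 at 0.175. LGALS12 was number 44 in this order, PLA2G16 number 280, RTN3 number 2477 and ATL3 number 7844. PLEKHS1 went from 2.76 ± 0.334 FPKM in No CM to 0.706 ± 0.165 FPKM in Cont CM and 1.47 ± 0.159 FPKM in TIS CM, while PI16 went from 4.91 ± 0.66 to 1.63 ± 0.243 and 2.48 ± 0.354 FPKM. HLA-DRB5 has near-identical relatives, so its own level is uncertain. The measure depends on the size of a change as well as its shape, and genes were ranked on the libraries that chose LGALS12 and RARRES3, so the order is a description.

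**Figure D3:**
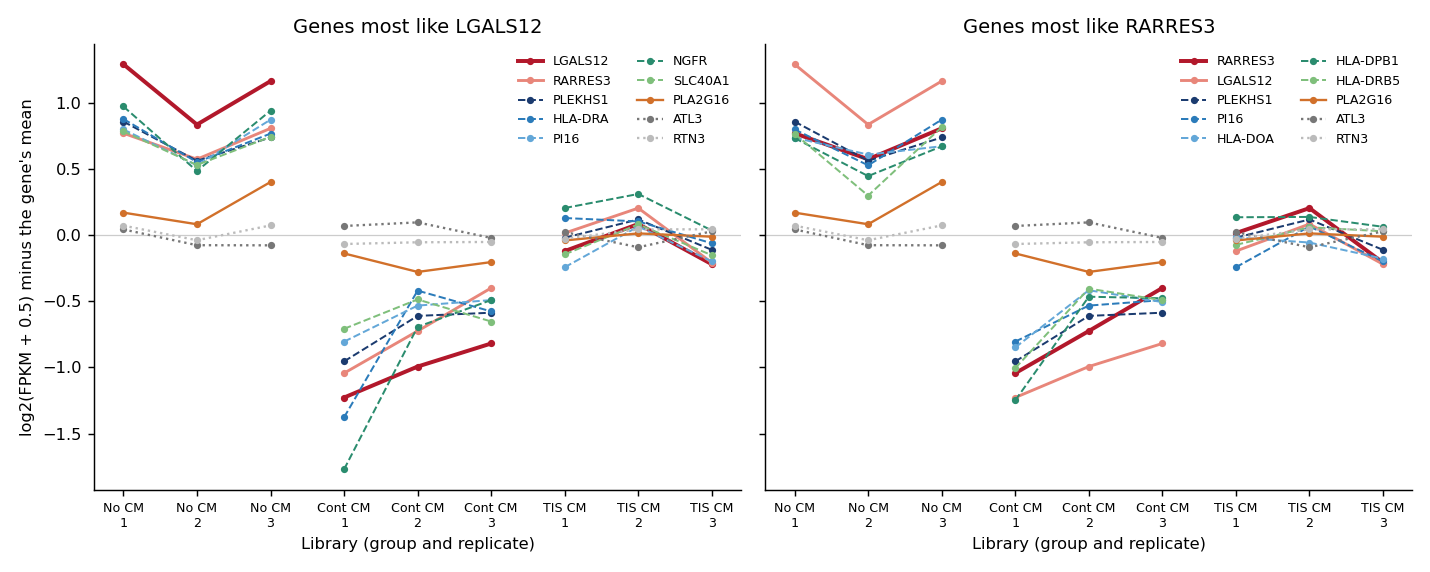
Log2(FPKM + 0.5) minus the gene's mean over 9 libraries (vertical axes) for LGALS12 (left) and RARRES3 (right), their 5 most similar genes and 3 further genes of the cluster, by library (horizontal axes); lines only join the points of a gene. The similar genes from other chromosomes run along RARRES3 at 0.0981 to 0.175, whereas ATL3 and RTN3 stay near 0.

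Genes related to the cluster by family or pathway were taken from 7 lists, without LGALS12 and RARRES3, and their counts stand against the background shares given above. No list call in TIS CM against Cont CM or TIS CM against No CM stood in all 9 fits with a library left out: their highest limma adjusted p in those fits ran from 0.0537 to 0.144 and from 0.077 to 0.157. In the PLAAT family, HRASLS, the relative outside the cluster, was at 1.07 ± 0.331, 1.16 ± 0.358 and 1.28 ± 0.244 FPKM (SD, n = 3) for No CM, Cont CM and TIS CM. Its change of 0.08 (SE 0.20) in Cont CM against No CM was not called (limma adjusted p = 0.828). Of 14 other galectins on the list 4 were tested, LGALS1, LGALS3, LGALS8 and LGALSL, and limma called 0 of 4 in all 3 comparisons. At an unadjusted p under 0.05, LGALS8 was higher in Cont CM against No CM and 2, LGALS8 and LGALSL, were lower in TIS CM against Cont CM, with 0 in TIS CM against No CM. Voom called LGALS8 alone in each of the first 2 comparisons and 0 in TIS CM against No CM. LGALS1, the most abundant at 498 ± 24.1, 492 ± 37.8 and 500 ± 14.1 FPKM, differed by -0.02 (SE 0.06) in Cont CM against No CM.

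RARRES3 is a retinoid-induced gene, and of 15 further tested genes of the retinoic acid pathway 5 fell and 2 rose in Cont CM against No CM, with a median of -0.01. Those that fell were RARRES1 and RARRES2, named like RARRES3 for their response to retinoids, DHRS3, which reduces retinal, and the receptor genes RXRA and RXRB. RARRES2, the gene of the chemoattractant chemerin, fell by 0.79 on the log2 scale (SE 0.10, limma adjusted p = 0.00143), from 27.4 ± 2.3 to 15.8 ± 2.38 FPKM. DHRS3 fell by 0.86 (SE 0.15, limma adjusted p = 0.00579). The receptor gene RARB, itself a classical retinoid target, rose by 0.67 (SE 0.16, limma adjusted p = 0.0235), as did NRIP1, a co-repressor also induced by retinoids, by 0.36 (SE 0.08, limma adjusted p = 0.017). The calls of RARRES2, RXRB and DHRS3 stood whichever library was left out, whereas RARB was lost without No CM replicate 1 or 3 (limma adjusted p up to 0.0793), NRIP1 without No CM replicate 3 and Cont CM replicate 2 or 3 (up to 0.0575), and RXRA and RARRES1 in 4 of 9 such fits each (up to 0.0862 and 0.0842). Without Cont CM replicate 2 the counts were 3 lower and 1 higher. In TIS CM against Cont CM RARRES2 and RXRB were higher and NRIP1 lower, and without Cont CM replicate 2 none of these 3 calls stood. Between TIS CM and No CM limma called 0 of 15 (0 higher and 4 lower at an unadjusted p under 0.05, 1 lower, DHRS3, by voom). In Cont CM against No CM genes of this list were called in both directions. The calls that stood there whichever library was left out were all falls. Any part of retinoids in the change of RARRES3 was not tested.

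Interferon is the other known inducer of RARRES3. Of 28 genes of the interferon gamma and IRF1 response, all tested, 15 fell and 1 rose in Cont CM against No CM, with a median of -0.23 against -0.00056 over all genes. The immunoproteasome subunit gene PSMB10 fell by 0.50 (SE 0.05, limma adjusted p = 0.000606) and the guanylate-binding protein gene GBP4 by 0.73 (SE 0.08, limma adjusted p = 0.00078). TAPBP, the antigen loading factor tapasin, and NMI, an interferon-induced regulator, fell by 0.35 and 0.51. GBP3 rose by 0.18 (SE 0.05, limma adjusted p = 0.0413), a call that stood in only 1 of 9 fits with a library left out. IRF1, a transcription factor induced by interferon, fell by 0.34 (SE 0.06, limma adjusted p = 0.00647). The count of 15 falls was also 15 by voom, without Cont CM replicate 2 and with the trend in GC content and length taken out. The genes were not all the same. PSMB9 was lost without Cont CM replicate 2, and with that trend taken out SOCS1 was lost and IFNGR1 added. Single calls lost when a library was left out were PSMB9 (5 of 9 fits), BTN3A1 (2) and SOCS1 (1). In TIS CM against Cont CM 6 of 28 rose, PSMB10, PSMB8, PSME1, NMI, PSME2 and TAP1, with a list median of 0.18, and 2 of 28 were called higher without Cont CM replicate 2. Between TIS CM and No CM GBP4 alone was called, lower by -0.49 (SE 0.08, limma adjusted p = 0.0348). None of the 15 that fell reached the size of the change of RARRES3.

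Galectin-12 and PLA2G16 act in fat storage, and of 14 tested genes of lipid droplets and lipolysis 5 rose and 1 fell in Cont CM against No CM. PLIN2, which coats droplets, rose by 0.87 (SE 0.08, limma adjusted p = 0.000236), from 18.6 ± 2.23 to 34.4 ± 1.2 FPKM. The monoacylglycerol lipase gene MGLL rose by 0.70 (SE 0.05, limma adjusted p = 7.87e-05), and HILPDA and G0S2, inhibitors of the main triglyceride lipase, by 0.41 and 0.62. ABHD5, which activates that lipase, rose by 0.25. The lipase gene itself, PNPLA2, fell by 0.35 (SE 0.06, limma adjusted p = 0.00483). The call of G0S2 was lost without No CM replicate 1 or 2 and Cont CM replicate 2 or 3 (limma adjusted p up to 0.0624), and the others stood. PLIN2, MGLL and HILPDA were lower in TIS CM against Cont CM, of which 1 was called without Cont CM replicate 2, and limma called 0 of 14 higher there (2 at an unadjusted p under 0.05, 1 by voom). MGLL was the only gene of this list called in TIS CM against No CM, higher by 0.40 (SE 0.05, limma adjusted p = 0.0131). Of the 6 genes of this list called in Cont CM against No CM, PNPLA2 alone had the direction of LGALS12.

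ATL3 and RTN3 belong to a list of 22 tested genes that shape the endoplasmic reticulum or mark it for autophagy. In Cont CM against No CM 4 rose, LNPK, REEP5, RTN4 and REEP3, and 2 fell, REEP4 and ARL6IP1, by 0.16 to 0.32 in size. The calls of LNPK and REEP4 stood whichever library was left out, and those of REEP5, RTN4, REEP3 and ARL6IP1 were lost in 3, 4, 7 and 7 of 9 such fits, with 2 higher and 2 lower left without Cont CM replicate 2. With the dependence on GC content and gene length removed, the balance turned to 1 higher, LNPK, and 4 lower, REEP4, ARL6IP1, RTN3 and ATL2. Without that removal, REEP4 alone was called in TIS CM against Cont CM, higher by 0.31 (SE 0.05, limma adjusted p = 0.02), and in TIS CM against No CM limma called 0 of 22 (2 higher and 2 lower at an unadjusted p under 0.05, 0 by voom). The paralogues ATL1 and ATL2 of ATL3 were not called in any comparison, except ATL2 with that dependence removed, by -0.20 in Cont CM against No CM (SE 0.04, limma adjusted p = 0.0114). Among 10 tested genes of other phospholipases A2 and of N-acylethanolamine metabolism, the chemistry of the PLAAT enzymes, PLA2G12A, GDE1 and GDPD1 rose in Cont CM against No CM, by 0.33, 0.17 and 0.41. PLA2G12A stood whichever library was left out, and GDE1 and GDPD1 were lost in 8 and 7 of 9 such fits. Limma called 0 of the 10 lower there (0 at an unadjusted p under 0.05, 0 by voom), and 0 were called in the other comparisons (0 by voom, with 2 lower in TIS CM against Cont CM and 1 higher in TIS CM against No CM at an unadjusted p under 0.05).

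**Figure D4:**
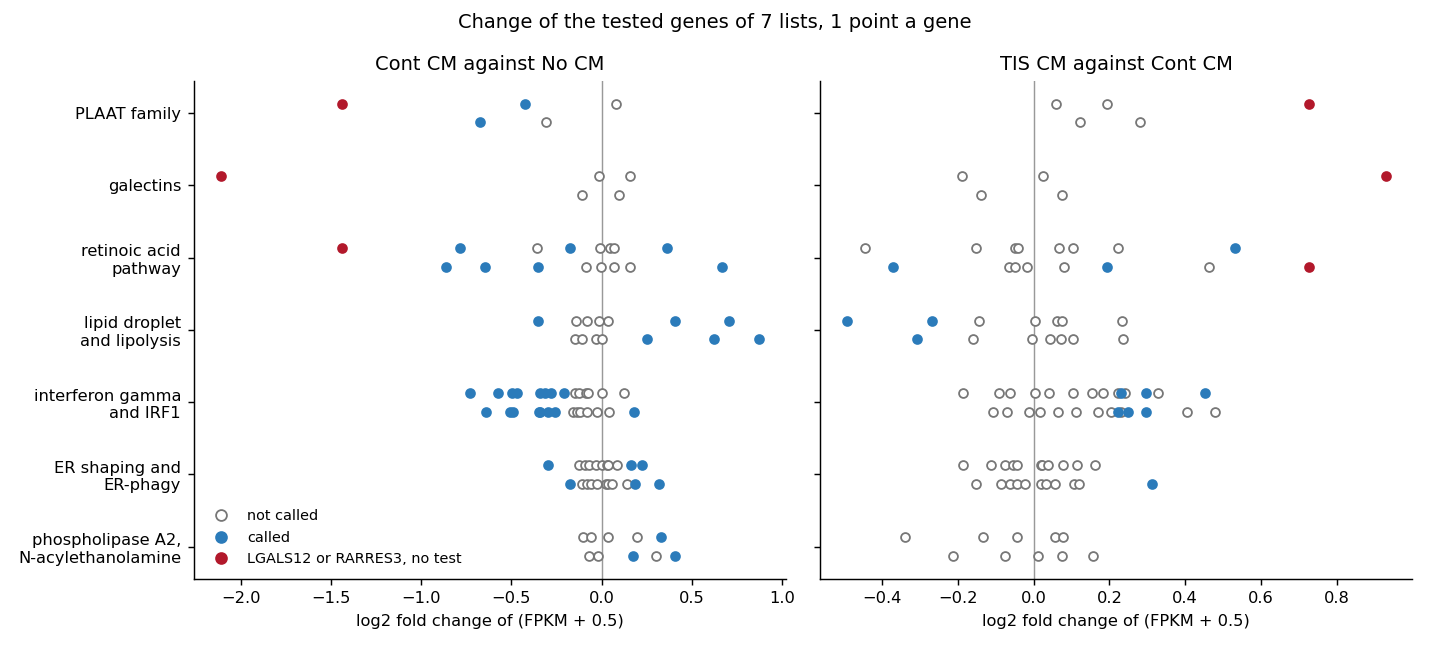
Log2 change of (FPKM + 0.5) on the horizontal axes for the tested genes of 7 lists (rows), 1 point a gene, in Cont CM against No CM (left) and TIS CM against Cont CM (right); filled blue points were called, open ones not, and red marks LGALS12 and RARRES3. The red points lie farther from 0 than every gene of their own lists, and 15 of 28 interferon genes are called on the left side of 0 in the left panel.

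Promoter sequence could be matched for 3 of the 7 genes, PLA2G16, ATL3 and RTN3, in RefSeq (GRCh38.p14). It is shown because PLA2G16 fell in Cont CM and its neighbours ATL3 and RTN3 were not called. The 250 bases before the start site are given in the gene's direction, with capitals for AGGTCA, the core element read by retinoid and related nuclear receptors, and GGGCGG, the GC box, on either strand.
PLA2G16 (chr11:63614438-63614687, minus strand): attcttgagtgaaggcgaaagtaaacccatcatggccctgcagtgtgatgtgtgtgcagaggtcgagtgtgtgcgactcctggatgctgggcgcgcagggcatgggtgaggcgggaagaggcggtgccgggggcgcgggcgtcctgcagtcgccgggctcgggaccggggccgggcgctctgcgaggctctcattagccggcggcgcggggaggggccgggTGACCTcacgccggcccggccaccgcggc
ATL3 (chr11:63671377-63671626, minus strand): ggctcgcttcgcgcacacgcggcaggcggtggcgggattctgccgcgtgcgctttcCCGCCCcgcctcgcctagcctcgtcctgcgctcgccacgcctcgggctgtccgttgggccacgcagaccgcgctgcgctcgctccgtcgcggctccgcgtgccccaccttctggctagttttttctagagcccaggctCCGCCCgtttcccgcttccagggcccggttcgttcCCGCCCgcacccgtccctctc
RTN3 (chr11:63681200-63681449, plus strand): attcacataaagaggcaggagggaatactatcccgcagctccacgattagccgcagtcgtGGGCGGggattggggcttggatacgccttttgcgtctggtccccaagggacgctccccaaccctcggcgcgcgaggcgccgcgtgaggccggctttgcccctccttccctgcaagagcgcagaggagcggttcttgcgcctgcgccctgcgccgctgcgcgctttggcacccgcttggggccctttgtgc
The PLA2G16 window held AGGTCA 1 time and GGGCGG 0 times, the ATL3 window 0 and 3 times, and the RTN3 window 0 and 1 times. RefSeq gives PLA2G16 a second, nearly identical window at 63614434 to 63614683, not shown, with the same counts as the first. Of 35116 such windows over all genes, 12.1% held AGGTCA and 42.6% GGGCGG on either strand, and no match of one motif overlapped a match of the other in the 3 windows shown. The RefSeq starts are not those of the deposited table: the windows of PLA2G16 and ATL3 lie wholly inside the deposited gene bodies, and the last bases of the RTN3 window do too. The windows hold 71.2%, 72.8% and 66.4% GC for PLA2G16, ATL3 and RTN3, against a median of 58% over all windows. These matches are letters in a window, not sites shown to be bound.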

How the data were processed

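Polyadenylated RNA of MDA-MB-231 cells was sequenced in 9 libraries, 3 per group, per the labels' protocols. The authors deposited FPKM per gene with gene length and position. Per the submitters' processing notes the tools were fastp, HISAT2 2.0.5, featureCounts 1.5.0-p3 and DESeq2 1.20.0 on hg38, with no settings or roles given. All 58735 identifiers matched GENCODE 29, and 29086 genes were listed at 0 in every library. In each library, FPKM times length gave whole multiples of 1 step (100% of values, tolerance 0.01), so fragments could be recovered. They summed to 32636708 to 39189036 per library, and 1 fragment on 1 kb was worth 0.0255 to 0.0303 FPKM, which limits precision for HRASLS2 and HRASLS5. How the deposited FPKM were scaled is not stated, and the library sizes they imply were 99.3% to 101.3% of the fragments on genes. Comparing scaled levels between groups assumes that most genes do not change.

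Genes with a mean of at least 0.5 FPKM (13912) were put on log2(FPKM + 0.5) and fitted with limma 3.58.1 in R 4.3.3, with group means over all 9 libraries, an intensity trend and Benjamini-Hochberg adjustment over all tested genes. A call is an adjusted p under 0.05, and SE and 95% intervals come from that fit. The fit was tested on simulated fragments, drawn with the same extra spread beyond counting for every gene and no trend with GC content or length. That test cannot show how the fit behaves where such a trend is present, as in Cont CM replicate 2. Alternatives were other pseudocounts, filters and scalings, voom on recovered fragments, 2 groups only, a block for the replicate number, single libraries left out, and levels corrected within a library for GC content and gene length, the last chosen after seeing the data.

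Named besides the 7 genes were other genes inside the span with a mean of at least 0.5 FPKM, up to 6 called genes per direction within 1 Mb, up to 4 called genes per direction of each list, and the 5 genes most like LGALS12 and RARRES3. AP001458.1, LGALS1, LGALS8, LGALSL, IRF1, HRASLS, ATL1 and ATL2, the further called list genes and the ratios of PLA2G16 to ATL3 and RTN3 were chosen after their values were seen. The members and lists were chosen with earlier results of these data known. Coding and promoter sequences came from GENCODE 29 and RefSeq, and coding sequences were aligned locally in pairs. Figures were drawn with matplotlib 3.10.9.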

Additional observations from a re-analysis of the deposited data

How the results depend on the processing

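The falls of HRASLS5 and PLA2G16 in Cont CM against No CM kept their call in all settings run, from -1.37 to -0.45 (limma adjusted p 0.00235 to 0.0452, 20 settings) and from -0.49 to -0.33 (limma adjusted p 0.000804 to 0.0289, 21 settings). LGALS12 was -2.39 with a pseudocount of 0.1, -1.85 with 1 and -2.46 by voom there, and 1.15 by voom in TIS CM against Cont CM. The change of RTN3 in Cont CM against No CM was -0.14 and called once the trend with GC content and length was taken out (limma adjusted p = 0.0422, against 0.146). Changes near 0 turned sign and were called in no setting: ATL3 to 0.00624 in TIS CM against Cont CM without that trend and to -0.0239 in TIS CM against No CM with equal library sums, and, over single libraries left out, HRASLS2 in TIS CM against Cont CM (-0.0788 to 0.141), RTN3 in TIS CM against No CM (-0.0525 to 0.00807) and AP000753.2 in Cont CM against No CM (-0.571 to 0.0869) and TIS CM against No CM (-0.191 to 0.466). The cause was not tested.

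Within 1 Mb, the count called higher in Cont CM against No CM (1) was 0 with 2 groups only, 0 with the replicate block, 3 without the GC and length trend, 0 to 2 with a library left out, 0 within 500 kb and 3 within 2000 kb, and the count called lower (8) was 3 within 500 kb and 14 within 2000 kb. In TIS CM against Cont CM the count called higher (4) was 0 with no filter, 8 for protein-coding genes, 2 after quantile normalization, 8 by voom, 0 with 2 groups only, 0 with the replicate block, 1 with no intensity trend, 0 without the GC and length trend, 0 to 8 with a library left out, 2 within 500 kb and 7 within 2000 kb.

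Over all genes, TIS CM against Cont CM gave 404 higher and 219 lower calls, but 23 and 10 with 2 groups only, 128 and 79 with no filter, 617 and 378 for protein-coding genes, 219 and 137 with no intensity trend, 625 and 460 by voom, 99 and 54 without the GC and length trend, and 67 and 32 without Cont CM replicate 2. The share called higher was 64.8%, 41.8% with equal library sums and 53.2% after quantile normalization, and in TIS CM against No CM it was 47.1% and 20.9% with equal library sums. Cont CM against No CM gave 1081 and 1191 calls, 573 and 669 with 2 groups only. Same-numbered libraries of different groups deviated together with r of -0.187 to 0.0838 over 9 pairs, against -0.129 to 0.201 for other pairs, and 2 of 9 libraries correlated best with their own number, so numbers were not taken to pair samples. The replicate block left 672 and 789 calls in Cont CM against No CM, 95 and 31 in TIS CM against Cont CM and 2 and 2 in TIS CM against No CM, and kept the calls of HRASLS5 and PLA2G16. Depth limits HRASLS2, at 10 to 24 fragments, most.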
